A study of Mus musculus with 9 samples.

Results

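The mouse fibroblast line Balb/c-3T3 carrying the viral oncogene v-Src was compared with the untransfected line across the whole Affymetrix mouse genome array. The comparison uses 6 of the 9 arrays of the study, which are the 3 labelled as carrying v-Src and the 3 labelled as carrying no transfected gene, with all 45037 probesets that remain once the 64 control probesets are left out. The v-Src cells were Balb/c-3T3 cells stably transfected with the plasmid pMvSrc, and the control cells were Balb/c-3T3 without a transfected gene. The remaining 3 arrays are of Balb/c-3T3 cells stably transfected with pRc/CMV-STAT3C, which encodes a constitutively active STAT3. They are used here to ask where v-Src cells differ from another transfected line, in a test that leaves the control arrays out. They also count in the choice of 1 probeset for each gene and in an alternative fit of all 9 arrays. All cells grew in DMEM with bovine calf serum, and RNA was purified with TRIzol and then an RNeasy kit. Each array holds RNA of 1 of 3 consecutive passages, for which 5 dishes were pooled. A group is therefore 1 line followed over 3 passages, and a p-value reflects how much passages of 1 line differ, not how independent transfections differ. The v-Src arrays are numbered 1, 5 and 6 and the control arrays 1, 2 and 3, and values are given in that order.

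Src is a non-receptor tyrosine kinase held inactive by phosphorylation of its tail. The viral form lacks that tail, signals without stimulation and transforms fibroblasts, which lose stress fibres and adhesion and grow without anchorage. It is known to feed the RAS-ERK pathway, phosphatidylinositol 3-kinase, focal adhesion proteins and STAT3, and Balb/c-3T3 cells have long been used to study it because untransformed cultures stop growing at contact.

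Expression was measured as log2 units of robust multichip average (RMA) signal, so a difference of 1 is a 2-fold change. The lower quartile of the 9 arrays lay between 5.07 and 5.16 and their median between 6.27 and 6.39. A probeset below the lower quartile is near background, and a change from or to such a level gives a lower bound on the true change. Arrays of 1 line correlated at 0.990 to 0.995 over all probesets, and arrays of v-Src and control cells at 0.943 to 0.948. Among the v-Src arrays, replicate 5 stood apart at 226 probesets, where it lay over 2-fold from both others, against 52 and 51 for replicates 1 and 6. The control arrays gave 139, 227 and 143 by the same measure. Of the probesets higher with v-Src, replicate 5 was the lowest of the 3 v-Src arrays for 48.1%.

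A gene was called changed where its limma test gave a Benjamini-Hochberg adjusted p under 0.05 over all probesets and a fold of at least 1.5. With 1 probeset for each of 18193 genes, 1736 genes were higher in v-Src cells (9.54%) and 1889 were lower (10.4%), together 19.9% of genes. Over single probesets the share higher was 8.75% and the share lower 8.1%. The change was at least 4-fold for 231 genes higher and 214 lower, at least 16-fold for 35 and 38, and at least 64-fold for 3 and 7. All v-Src arrays lay above all control arrays for 4428 genes (24.3%) and below them for 4184 (23%). The median log2 change over all genes was 0.02 and its median size 0.21. An exact permutation test of 3 arrays against 3 cannot give a p below 0.1, so single genes rest on the fit across all probesets. A total of 69 gene lists with 2269 measured entries was counted, and lists are described below by counts and medians, which are to be read against these shares. The plot of gene lists shows the share of each list that passed. A gene is represented by its probeset with the highest mean, and some probesets, such as those used for H2-K1, Acta2, Adm, Mt1, Vldlr and Hoxc6, can also take up signal of near-identical transcripts.

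**Figure D1:**
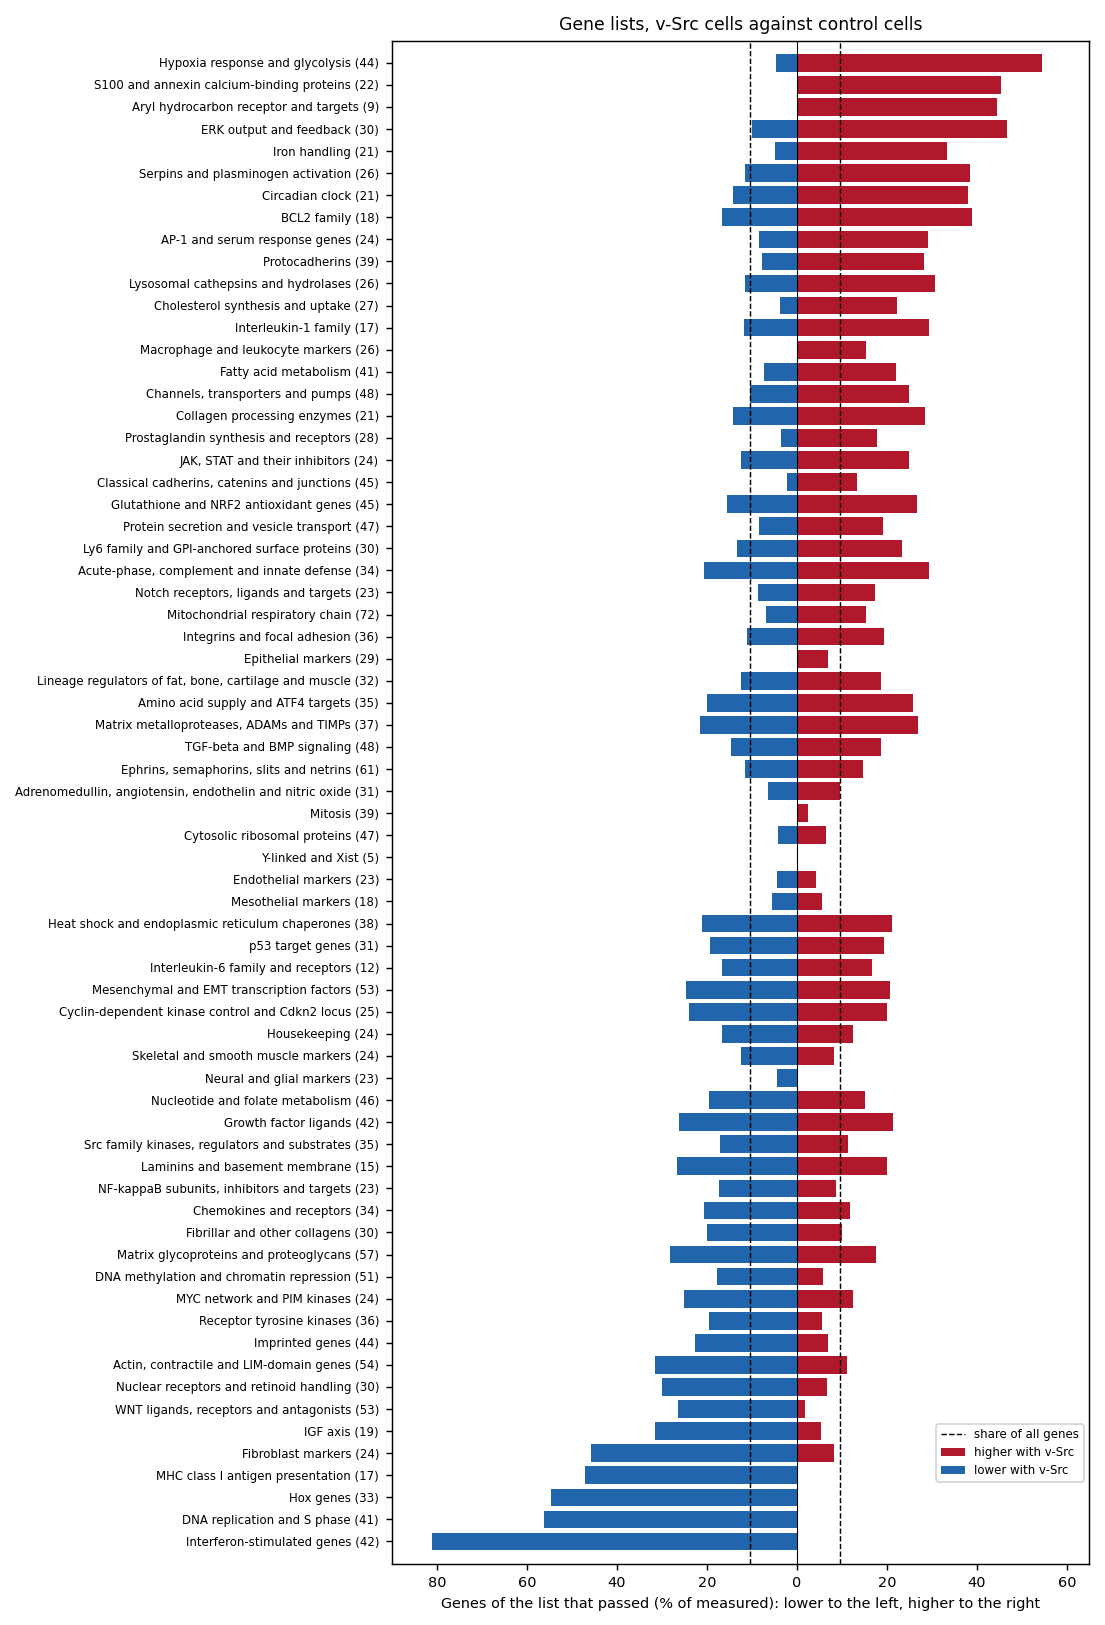
Share of each gene list reported here that passed in v-Src against control cells (horizontal axis, percent of measured genes, lower to the left and higher to the right), with the number measured in brackets and dashed lines at the share of all genes. Interferon-stimulated genes (34 of 42), DNA replication (23 of 41) and Hox genes (18 of 33) lie at the lower end, and hypoxia and glycolysis (24 of 44) and S100 and annexin genes (10 of 22) at the higher end.

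The Src probeset, which targets the mouse gene, lay at 8.11, 8.34 and 8.55 on the v-Src arrays and at 8.58, 8.42 and 8.34 on the control arrays. These overlapped, and the difference of -0.11 (SE 0.13, limma adjusted p = 0.553) did not pass. Whether this probeset detects the transfected viral sequence is not given in the sources used here, so it is no check of the transfection. Of 35 Src family kinases, regulators and substrates, 4 were higher and 6 lower (median change 0.03), and the 4 were 2 without v-Src replicate 1. Adapters of tyrosine kinases led the rises. Grb10, which binds the insulin receptor and other receptor kinases, had 10.78, 10.81 and 10.95 against 6.11, 6.39 and 6.29, a rise of 4.58 (SE 0.10, adjusted p = 7.13e-07). Bcar3, which binds the Src substrate p130Cas, rose by 3.57 (SE 0.09) with no overlap between the lines. Cttn, the actin-binding Src substrate cortactin, rose by 0.68 and lost its call, at 0.58, once v-Src replicate 1 was left out. Falls were smaller. They included Dok1, a docking protein that restrains tyrosine kinase signaling (-1.48), Tnk2, a kinase downstream of Cdc42 (-1.19), Cav1, the caveolae protein caveolin-1 (-1.11), and Fyn, a Src family kinase (-0.66).

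Many ERK target genes were higher. Of 30 genes of ERK output and feedback, 14 were higher and 3 lower, with a median change of 0.50. Dusp4, a nuclear phosphatase that inactivates ERK and is induced by it, lay at 8.42, 8.37 and 8.40 with v-Src and 5.43, 5.76 and 5.41 in control cells. The lines did not overlap and the rise was 2.86 (SE 0.11, adjusted p = 7.51e-06), 7.27-fold. Ier3, an immediate early survival gene, rose by 1.42 (SE 0.17), Spred3, a member of a family that inhibits RAF activation, by 1.40 (SE 0.20), and the immediate early transcription factors Egr1 and Egr2 by 1.35 and 1.02. The feedback inhibitors did not move as 1 group. Spry1, a Sprouty inhibitor of receptor signaling, lay at 7.78, 7.68 and 7.79 against 8.97, 9.20 and 8.45 and fell by 1.12 (SE 0.18, adjusted p = 0.00354). Spry2 fell by 0.65 and Dusp1, a phosphatase of stress kinases, by 1.42, but these 2 lost the call when single arrays were left out, Spry2 without control replicate 1 or 2 or v-Src replicate 5 or 6 and Dusp1 without any 1 of the control arrays, and the count of 3 was 1 without control replicate 1 or 2. Dusp6, the cytoplasmic ERK phosphatase, had a change of 0.53 (adjusted p = 0.102), which did not pass.

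Of 24 AP-1 and serum response genes, 7 were higher and 2 lower (median 0.11). Fosl1, the AP-1 subunit Fra-1, lay at 12.19, 12.25 and 12.28 against 10.25, 10.43 and 10.58, a rise of 1.82 (SE 0.10, adjusted p = 3.61e-05). Plaur, the cell surface receptor of urokinase, lay at 10.79, 10.70 and 10.77 against 8.07, 8.32 and 8.35 and rose by 2.51 (SE 0.10, 5.69-fold). Neither gene overlapped between the lines. The ligand of Plaur, Plau, rose by 1.04 and the small MAF factor Maff by 1.11. Atf3, a stress-induced factor of the same family, had 5.57, 5.44 and 5.53 against 7.07, 7.14 and 6.69 and fell by 1.45 (SE 0.13), and Srf, the serum response factor, fell by 0.75 (SE 0.11). The Plaur promoter is shown because it holds the AP-1 letters searched, TGACTCA or TGAGTCA on either strand, at -69 counted from the start site. It is chr7:24462233-24462532 of GRCm38.p6, plus strand, from RefSeq, with the match in capitals.
Plaur: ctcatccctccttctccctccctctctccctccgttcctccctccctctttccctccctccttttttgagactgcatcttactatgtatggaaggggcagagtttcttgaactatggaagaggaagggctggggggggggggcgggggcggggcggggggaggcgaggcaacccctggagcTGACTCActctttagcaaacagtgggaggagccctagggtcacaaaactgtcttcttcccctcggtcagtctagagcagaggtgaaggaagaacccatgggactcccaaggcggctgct
These letters stood in 4.52% of 18009 promoters of the same 300 bases, in 4.93% of 1804 promoters of genes higher with v-Src and in 3.70% of 1919 promoters of genes lower. A match is a description and shows no binding.

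In the JAK-STAT pathway 6 of 24 genes were higher and 3 lower (median 0.07). Socs3, an inhibitor of the pathway, lay at 11.94, 11.68 and 12.06 against 7.85, 8.33 and 8.60. Its rise of 3.63 (SE 0.19, limma adjusted p = 3.19e-05) was the largest of the list. Stat3 itself lay at 10.69, 10.47 and 10.94 against 8.89, 9.23 and 9.38, a rise of 1.53 (SE 0.16, adjusted p = 0.000537). Stat5a, which transmits growth hormone and cytokine signals, had 8.99, 8.90 and 9.02 against 6.66, 6.75 and 6.48 and rose by 2.34 (SE 0.09). Stat3, Stat5a, Stat5b (0.81) and Ghdc (1.11) are neighbours on chromosome 11 and all rose. Falls were seen for Pias2, a SUMO ligase that restrains STAT activity (-3.76, SE 0.18), Stat2, the interferon signal transducer (-1.88), and Jak2 (-0.72). Among 12 genes of the interleukin-6 family 2 were higher and 2 lower. Lif, the ligand, rose by 1.25 (SE 0.14), while its receptor Lifr went from 9.10, 9.70 and 9.57 to 5.07, 5.36 and 5.17, a fall of 4.26 (SE 0.16, adjusted p = 8.1e-06) that ended about the lower quartile, below it on 1 of the 3 v-Src arrays. Osmr, the receptor of the related cytokine oncostatin M, rose by 1.02 (SE 0.22).

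Interferon-stimulated genes had the largest share of calls among the 69 lists. Of 42 measured, 34 were lower and none higher, with a median change of -2.25. Zbp1, Gbp2 and Eif2ak2 were among the 8 that did not pass, with changes of -1.22, -0.80 and -0.76. These genes encode antiviral proteins that are induced by interferon. Ifit1, which binds viral RNA without a proper cap, lay at 6.61, 8.02 and 8.0 on the v-Src arrays and 11.28, 12.67 and 12.12 on the control arrays. Ifit3, its partner, had 6.45, 7.71 and 7.53 against 10.99, 12.24 and 11.75. Irf7, the transcription factor that amplifies the interferon response, had 6.83, 7.17 and 7.27 against 10.99, 11.83 and 11.27. None of these overlapped between the lines, and they fell by 4.48 (SE 0.47, adjusted p = 0.000516), 4.43 (SE 0.41) and 4.27 (SE 0.22). The fall extended to the RNA sensor Ifih1 (-4.16), the deubiquitinase Usp18 (-4.20), the GTPase Mx1 (-3.86), the tethering protein Bst2 (-3.25) and the transcription factor subunit Irf9 (-1.38). The level in control cells differed between the arrays, each of which holds 1 passage. Over the list, the median relative to each gene's control mean was -0.42, 0.28 and 0.11 on the control arrays and -2.37, -2.12 and -2.16 on the v-Src arrays, so the passages of control cells differed by less than the lines did. In v-Src against STAT3-C cells, where 4.84% of all genes were higher and 6.83% lower (4.99% and 5.33% of probesets), 1 of the 42 was higher and 5 were lower, with a median difference of -0.15.

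The promoters of these genes are shown for a sequence named after the response to interferon, which induces the genes of this list. A high share of it in the list follows from which genes are listed and is no result about v-Src. The interferon response element was searched as GAAA, any 2 bases and GAAA, on both strands, in the 300 bases from 250 before to 50 after each RefSeq start site. It stood in 3.04% of 18009 promoters of 14368 measured genes and in 14 of 26 promoters (53.8%) of the 23 interferon-stimulated genes that were lower and have a promoter in the table. Among those that did not pass it stood in 4 of 12 promoters (33.3%) of 7 genes. Matches are in capitals, on either strand. All promoters are of GRCm38.p6. Ifit1 is chr19:34640639-34640938 on the plus strand, Ifit3 is chr19:34583279-34583578 on the plus strand and Ifih1 is chr2:62646206-62646505 on the minus strand.
Ifit1: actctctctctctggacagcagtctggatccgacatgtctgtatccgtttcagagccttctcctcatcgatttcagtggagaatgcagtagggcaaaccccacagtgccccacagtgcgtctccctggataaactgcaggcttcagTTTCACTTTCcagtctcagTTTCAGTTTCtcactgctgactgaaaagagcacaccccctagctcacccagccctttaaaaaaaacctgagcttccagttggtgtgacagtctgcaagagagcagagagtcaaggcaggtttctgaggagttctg
Ifit3: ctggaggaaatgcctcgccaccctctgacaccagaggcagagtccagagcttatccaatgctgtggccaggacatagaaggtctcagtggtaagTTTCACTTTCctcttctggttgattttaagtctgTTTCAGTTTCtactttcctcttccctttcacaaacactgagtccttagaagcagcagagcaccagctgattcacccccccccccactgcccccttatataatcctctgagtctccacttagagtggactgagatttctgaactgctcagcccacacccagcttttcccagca
Ifih1: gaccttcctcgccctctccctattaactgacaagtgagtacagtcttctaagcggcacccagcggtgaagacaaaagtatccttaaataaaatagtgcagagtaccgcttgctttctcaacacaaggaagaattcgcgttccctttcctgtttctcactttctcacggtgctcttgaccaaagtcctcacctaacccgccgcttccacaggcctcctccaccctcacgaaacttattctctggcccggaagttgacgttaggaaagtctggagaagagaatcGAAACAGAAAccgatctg
Counted from the start site, the first match lies at -104 in Ifit1, at -156 in Ifit3 and at 32 in Ifih1. The element was not found in the 300 bases of Irf7, which says only that these letters are not in that window.

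Genes of MHC class I antigen presentation also moved to lower levels, with 8 of 17 lower and none higher (median -0.55). H2-K1, a classical class I heavy chain, lay at 10.86, 11.01 and 11.05 against 13.29, 13.59 and 13.18, a fall of 2.38 (SE 0.12, adjusted p = 2.56e-05). Psmb8 and Psmb9, the immunoproteasome subunits that cut peptides for display, fell, with changes of -2.59 (SE 0.25) and -2.59 (SE 0.39), as did the peptide transporter subunits Tap1 (-1.95) and Tap2 (-0.69). Psmb9, Tap1, Psmb8 and Tap2 lie next to each other on chromosome 17. B2m, the light chain, had -0.55 and did not pass. Probesets of class I heavy chains may share sequence, so their split between genes is uncertain.

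Genes of the hypoxia response and of glycolysis had the largest share of rises among the 69 lists, with 24 of 44 higher, 2 lower (1 without control replicate 2) and a median change of 0.78. Many of these genes are classical targets of the factor HIF-1, which is stable when oxygen is low and in some transformed cells. Car9, a membrane carbonic anhydrase used as a hypoxia marker, lay at 12.05, 10.64 and 11.91 on the v-Src arrays and 5.48, 5.72 and 5.65 on the control arrays. It rose by 5.92 (SE 0.35, adjusted p = 4.71e-05), 60.4-fold, with v-Src replicate 5 lowest of the 3. Egln3, an oxygen-sensing prolyl hydroxylase, had 10.24, 10.24 and 10.11 against 6.91, 6.18 and 6.87 and rose by 3.54 (SE 0.19). Glucose entry and its first steps rose as well, with Slc2a1, the transporter GLUT1, at 2.5 (SE 0.25), Slc2a3, GLUT3, at 2.04, the hexokinases Hk1 and Hk2 at 1.03 and 1.71, and Pfkp, the platelet phosphofructokinase, at 2.86 (SE 0.21). At the end of the pathway the enolase Eno2 rose by 2.43, the lactate exporter Slc16a1 by 1.37 and Pdk1, which keeps pyruvate out of mitochondria, by 1.85. Hif1a rose by 1.18 (SE 0.15). Adm, the hypoxia-induced vasodilator peptide adrenomedullin, went the other way. It lay at 6.30, 6.32 and 6.13 against 11.46, 11.68 and 11.35, a fall of 5.24 (SE 0.11, adjusted p = 6.12e-07). Of the whole list 12 genes were also higher with v-Src than with STAT3-C and none lower, with a median difference of 0.34.

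The core of the hypoxia response element, ACGTG on both strands, was added to the search after the data had been seen. It overlaps the E-box CACGTG, which contains it. It stood in 22.9% of all 18009 promoters, in 18 of 28 promoters (64.3%) of the 21 hypoxia and glycolysis genes that rose and have a promoter in the table, and in 12 of 28 (42.9%) of the 17 that did not pass. Many genes of the list are classical hypoxia targets, so an excess over all promoters follows from the list and is no result about v-Src. Some genes, such as Aldoa and Ldha, have several promoters, which were counted separately. Car9 and Slc2a1 are shown for their matches at -18 and -36 counted from the start site. Car9 is chr4:43506776-43507075 and Slc2a1 is chr4:119108495-119108794, both of GRCm38.p6 and on the plus strand, with the core or its complement in capitals.
Car9: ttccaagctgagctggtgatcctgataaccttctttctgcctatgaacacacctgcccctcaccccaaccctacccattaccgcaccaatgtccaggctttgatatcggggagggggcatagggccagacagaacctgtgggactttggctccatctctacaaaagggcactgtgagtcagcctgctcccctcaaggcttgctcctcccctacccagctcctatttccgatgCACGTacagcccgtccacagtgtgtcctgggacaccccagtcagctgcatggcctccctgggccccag
Slc2a1: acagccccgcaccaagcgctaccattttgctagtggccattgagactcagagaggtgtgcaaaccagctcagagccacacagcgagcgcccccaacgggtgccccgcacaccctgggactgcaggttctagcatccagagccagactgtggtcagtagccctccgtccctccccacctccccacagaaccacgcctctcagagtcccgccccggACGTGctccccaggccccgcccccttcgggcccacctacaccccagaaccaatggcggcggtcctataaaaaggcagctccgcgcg
The letters TTCCNGGAA and TTCNNNGAA, searched for STAT, stood in 0.998% and 6.43% of promoters of genes higher with v-Src and in 1.18% and 7.20% of all, and CACGTG in 8.98% and 8.74%. The cyclic AMP element TGACGTCA stood in 1.88% of promoters of genes higher, in 3.28% of those of genes lower and in 2.5% of all.

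**Figure D2:**
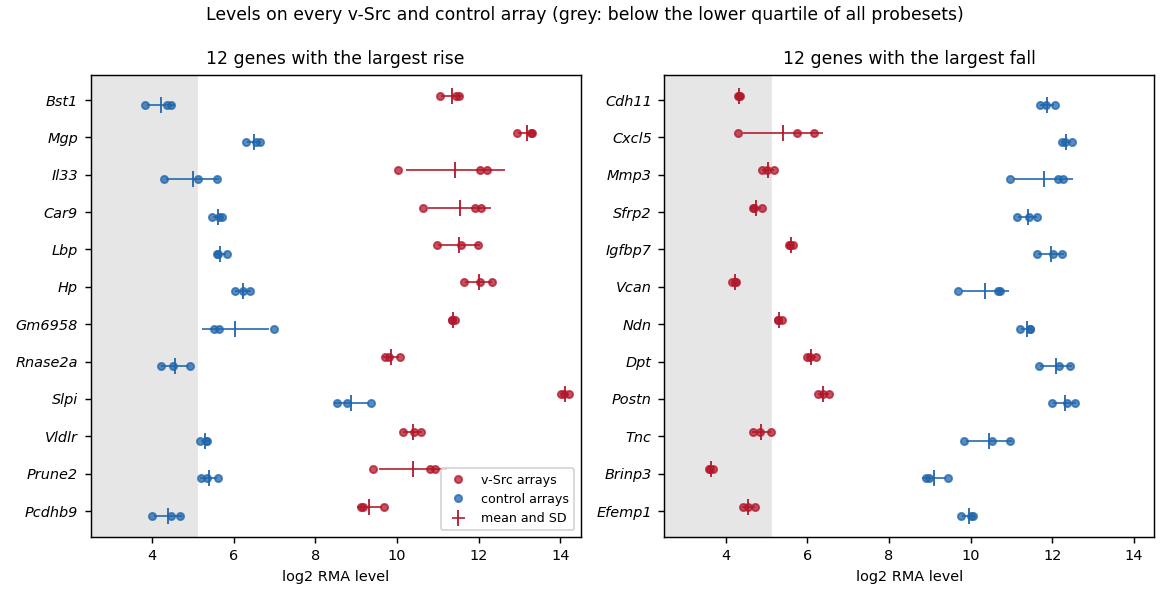
Log2 RMA level (horizontal axis) on every v-Src and control array of the 12 genes with the largest rise and the 12 with the largest fall, 1 point an array, with the mean and SD and with grey below the lower quartile of all probesets. These genes were chosen for arrays that do not overlap between the lines, and Car9 on v-Src replicate 5 lies apart from the other v-Src arrays at 10.64.

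The 12 largest rises among genes that passed with no overlap are Bst1, Mgp, Il33, Car9, Lbp, Hp, Gm6958, Rnase2a, Slpi, Vldlr, Prune2 and Pcdhb9. Bst1, an ectoenzyme anchored by GPI, lay at 11.45, 11.05 and 11.51 against 4.46, 4.38 and 3.84, a rise of 7.11 (SE 0.19), at both of its probesets. Lbp, which binds endotoxin, rose by 5.84 (SE 0.24), Slpi, a protease inhibitor of secretions, by 5.22 (SE 0.20) and Gm6958 by 5.33 (SE 0.36). By the same rule the 12 largest falls are Cdh11, Cxcl5, Mmp3, Sfrp2, Igfbp7, Vcan, Ndn, Dpt, Postn, Tnc, Brinp3 and Efemp1. Of these Mmp3, the protease stromelysin-1, fell by 6.75 (SE 0.32), and the matrix genes Vcan (-6.14), Postn (-5.90) and Tnc (-5.58) fell as well, Vcan at 3 of its 8 probesets and Tnc at 1 of 2. Ndn, an imprinted gene, fell by 6.06 (SE 0.09), with 5 of its 8 probesets lower and 1 higher.

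Other metabolic lists moved less or in both directions. Of 72 subunits of the mitochondrial respiratory chain 11 were higher and 5 lower (median 0.07). The count of 11 was 7 without control replicate 1 and 6 after median centring, and the 5 were 3 without v-Src replicate 6. The changes were small, with Uqcrh highest at 1.08 and Uqcrb lowest at -0.69. Of 35 genes of amino acid supply, many of them targets of the stress factor ATF4, 9 were higher and 7 lower against control. Cth, which makes cysteine from cystathionine, lay between 10.84 and 11.33 on the v-Src arrays and between 7.45 and 7.98 on the control arrays, and rose by 3.10 (SE 0.25, adjusted p = 0.000168). Slc7a11, the cystine importer, rose by 1.84 (SE 0.17), while Slc7a5, the importer of large neutral amino acids, fell by 1.22 (SE 0.16) and the stress factor Ddit3 by 1.44 (SE 0.28). In the direct comparison of the lines 18 of these 35 genes were higher with v-Src than with STAT3-C and none lower, with a median difference of 0.68.

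Cholesterol synthesis and uptake had 6 of 27 genes higher and 1 lower, or 2 without v-Src replicate 6 (median 0.30). The lipoprotein receptor Vldlr lay at 10.59, 10.15 and 10.42 against 5.18, 5.33 and 5.36 and rose by 5.09 (SE 0.12, adjusted p = 1.23e-06), with all 6 of its probesets higher. Abca1, which exports cholesterol, rose by 2.38 and Sqle, squalene epoxidase, by 2.05. The list varied between arrays of a line, with medians of 0.25, 0.08 and 0.78 on the v-Src arrays and -0.17, -0.06 and 0.26 on the control arrays. Among 41 genes of fatty acid metabolism 9 were higher and 3 lower, led by the fatty acid carrier Fabp4 at 3.37 (SE 0.36) and the lipid droplet protein Plin2 at 1.75. Nucleotide and folate metabolism had 7 of 46 higher and 9 lower. The pyrimidine salvage enzymes Cda and Upp1 rose by 4.40 (SE 0.19) and 3.29 (SE 0.29) and the surface enzyme Nt5e, which makes adenosine, by 1.97. Ada and Adk, which remove adenosine, fell by 1.57 and 1.54.

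Of 45 glutathione and antioxidant genes 12 were higher and 7 lower (median 0.14). The transferase Mgst2 lay at 9.69, 9.67 and 9.67 against 5.48, 5.58 and 5.72, a rise of 4.09 (SE 0.08), and the metallothioneins Mt1 and Mt2, which bind zinc and copper, rose by 2.44 and 2.61. Cbr3, a carbonyl reductase, fell by 3.26 (SE 0.16). The aryl hydrocarbon receptor, a ligand-activated factor that induces enzymes of xenobiotic metabolism, rose with 3 of its targets, so that 4 of 9 genes were higher and none lower (median 0.43). Ahr lay at 10.79, 10.26 and 11.23 against 5.87, 5.92 and 5.92, a rise of 4.86 (SE 0.22, adjusted p = 1.61e-05). Cyp1b1, a target with cytochrome P450 activity, had 10.94, 11.65 and 11.20 against 6.87, 6.79 and 6.32 and rose by 4.6 (SE 0.21). Aldh3a1 rose by 2.85 and Tiparp by 1.35. The targets Cyp1a1 (0.07), Cyp1a2 (0.18), Ahrr (0.06) and Nqo1 (0.43) did not pass, and neither did Arnt (0.16). Of the 9 genes, 3 were lower with v-Src than with STAT3-C. Iron handling had 7 of 21 genes higher and 1 lower, or 2 without control replicate 1 (median 0.31), among them the importer Slc39a14 (2.73), the ferroxidase Heph (2.35) and the siderophore carrier Lcn2 (2.32). Of 48 channels, transporters and pumps 12 were higher and 5 lower. The water channel Aqp5 and the potassium channel Kcnn4 rose by 4.68 and 2.93. The near-identical drug exporters Abcb1a and Abcb1b had 3.31 (SE 0.11) and -2.68 (SE 0.17), and because their sequences are alike this split is uncertain.

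Many genes of DNA replication were lower. Of 41 measured, 23 were lower and none higher, with a median change of -0.83. Mcm6, a subunit of the replicative helicase, lay at 9.38, 9.79 and 9.15 against 11.38, 11.06 and 11.44, a fall of 1.85 (SE 0.18, adjusted p = 0.000371). The origin recognition subunit Orc6 had 8.10, 8.47 and 8.02 against 9.50, 9.34 and 9.69 and fell by 1.31 (SE 0.14). Neither overlapped, and on both v-Src replicate 5 came closest to the control cells. Mcm2 to Mcm5, the kinase Cdk2 (-1.24), the licensing factor Cdt1 (-1.16) and the clamp Pcna (-0.73) fell as well. The count depended on the arrays. It was 14 without control replicate 3 and 27 without v-Src replicate 5, and it was 12 at a fold of at least 2 and 11 at an adjusted p under 0.01. Against STAT3-C cells 14 of the 41 were lower in v-Src cells and none higher, with a median difference of -0.57.

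Mitotic genes did not follow. Of 39, only Anln, the cytokinesis scaffold anillin, passed, at 11.30, 12.01 and 11.20 against 10.31, 9.63 and 10.96 (1.20, SE 0.35, adjusted p = 0.0412), and it lost its call without v-Src replicate 1, 5 or 6 or control replicate 1 or 2 and after median centring, while 3 mitotic genes passed without control replicate 3. The median change of the list was 0.18. Its levels differed between the arrays of each line, where passage and array cannot be told apart. Relative to the control means, the list median was -0.11, 0.84 and -0.21 on the v-Src arrays and 0.03, -0.57 and 0.53 on the control arrays, so that the lines overlapped. The replication list had -0.89, -0.41 and -1.11 on the v-Src arrays and 0.02, -0.19 and 0.17 on the control arrays, with no overlap.

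**Figure D3:**
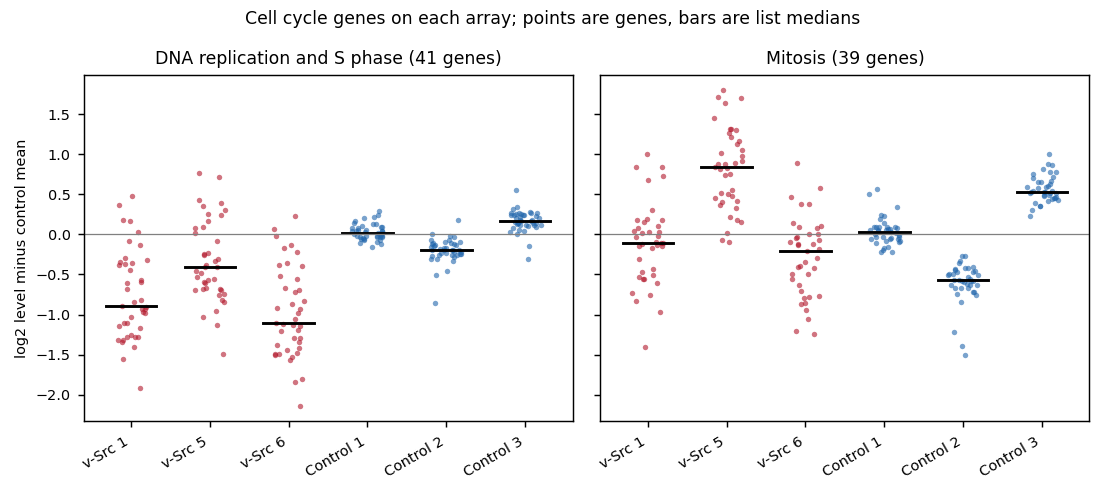
Log2 level of each gene of the DNA replication list (41 genes) and the mitosis list (39 genes) on each array, minus its mean in control cells (vertical axis), with a bar at the list median. The replication medians lie below those of the control arrays on every v-Src array, while the mitosis medians range from -0.21 to 0.84 on the v-Src arrays and from -0.57 to 0.53 on the control arrays.

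Regulators of the cell cycle moved in both directions, with 5 of 25 genes higher and 6 lower. The retinoblastoma protein gene Rb1 rose by 1.03 (SE 0.16) and its relative Rbl2, a quiescence regulator, fell by 2.17 (SE 0.15). The growth arrest genes Gas1 and Gas2 fell by 1.38 and 1.71, and the inhibitor Cdkn1b, p27, by 1.22. Of 31 target genes of p53, 6 were higher and 6 lower. Pmaip1, the death-promoting BCL2 protein Noxa, lay at 8.48, 8.80 and 8.97 against 3.79, 4.08 and 4.06, a rise of 4.77 (SE 0.14) from background. The death receptor Fas, by contrast, fell by 1.49 (SE 0.09), and Apaf1, which activates caspases, by 1.14 (SE 0.17). In the BCL2 family 7 of 18 genes were higher and 3 lower (median 0.18), with the pore-forming Bak1 at -1.40 and the hypoxia-inducible Bnip3 at 2.26. Of 24 genes of the MYC network and PIM kinases 3 were higher and 6 lower. The MYC family gene Mycn fell by 2.22 (SE 0.08) from a control mean of 14.14. Nop58 fell by 1.76, Mga by 1.66 and Max, the partner of MYC, by 1.40. Mlx, a partner of glucose-sensing factors, rose by 1.42, and Myc itself had 0.38 and did not pass.

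The matrix changed in both directions. Of 57 matrix glycoproteins and proteoglycans 10 were higher and 16 lower (median -0.14). Mgp, matrix Gla protein, which inhibits calcification, lay at 13.31, 12.94 and 13.28 against 6.56, 6.31 and 6.65 (102-fold). Gpc1, a cell surface heparan sulfate proteoglycan, had 10.83, 11.24 and 11.07 against 6.52, 6.30 and 6.51 and rose by 4.6 (SE 0.12, adjusted p = 1.78e-06). Ecm1, extracellular matrix protein 1, rose by 3.52 (SE 0.18), and the syndecan Sdc4 by 2.38. Efemp1, a fibulin of elastic fibres, went from 10.02, 9.76 and 10.06 to 4.41, 4.72 and 4.54, a fall of 5.39 (SE 0.12) that ended below the lower quartile. The thrombospondins Thbs1 and Thbs2, which bind CD36 and TGF-beta, fell by 2.44 and 4.73, and the small proteoglycan Lum by 3.17. In direct comparison with STAT3-C cells 10 of these 57 were higher and 4 lower.

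Among 30 collagens 3 were higher and 6 lower (median -0.07). The basement membrane collagen Col18a1 rose by 2.88 (SE 0.16) and the minor fibrillar chain Col11a1 by 2.14, and the fibrillar chains Col5a2, Col3a1 and Col1a1 fell by 2.22, 1.63 and 1.34 and the microfibril chains Col6a1 and Col6a2 by 1.76 and 1.83. Of 21 collagen-processing enzymes 6 were higher and 3 lower. Pcolce2, an enhancer of procollagen cleavage, lay at 9.0, 9.08 and 9.01 against 4.77, 4.72 and 4.56 and rose by 4.34 (SE 0.08), while the lysyl hydroxylase Plod2 rose by 1.69 and the crosslinking oxidases Loxl1 and Loxl3 fell by 1.55 and 2.20. Of 15 laminins and basement membrane genes 3 were higher and 4 lower, with Lama5 at 1.88 and Lama4 at -3.75 (SE 0.20).

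The proteases divided too. Of 37 metalloproteases, ADAMs and TIMPs 10 were higher and 8 lower, and the first count was 6 without v-Src replicate 1 or 6. The rises were moderate, led by Adam8, a protease of leukocytes and invasive cells, at 1.99 (SE 0.32), and Adamts4, an aggrecanase, at 1.55 (SE 0.25). The collagenase Mmp13 went from 6.81, 8.33 and 7.51 to 3.79, 3.71 and 3.55, a fall of 3.87 (SE 0.34) to background, and the gelatinase Mmp2 fell by 2.05 (SE 0.20). Of 26 serpins and genes of plasminogen activation 10 were higher and 3 lower (median 0.10). Serpinb2, the urokinase inhibitor PAI-2, had 7.37, 6.18 and 7.68 against 5.1, 5.94 and 4.15 and rose by 2.01, but it did not pass without control replicate 1 or 3 or v-Src replicate 1 or 6. Tfpi, an inhibitor of coagulation, and Serpinf1, an inhibitor of angiogenesis, fell by 2.07 and 1.59. Among 26 lysosomal cathepsins and hydrolases 8 were higher and 3 lower. The cysteine proteases Lgmn, Ctsb and Ctsz rose by 2.01, 1.42 and 1.20, and Ctsk, the collagen-degrading cathepsin, fell by 1.75.

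Many contractile genes fell. Of 54 actin, contractile and LIM-domain genes 17 were lower and 6 higher (median -0.28). Acta2, smooth muscle actin, a marker of stress fibres in myofibroblasts, lay at 7.72, 7.90 and 7.68 against 13.13, 12.57 and 12.85, a fall of 5.08 (SE 0.15, adjusted p = 2.37e-06). This is 1 of its 3 probesets and the only one that passed. Fhl1, a LIM protein of the contractile apparatus, had 6.03, 6.01 and 5.73 against 11.62, 10.51 and 11.19 and fell by 5.18 (SE 0.26), at 1 of its 2 probesets. Csrp1 fell by 3.59 (SE 0.13) at both of its probesets, and with it the actin-binding genes Tagln (-2.04), Cnn1 (-1.72), Cald1 (-1.93), Tpm1 (-1.66) and Tpm2 (-1.06). The 6 that rose were led by Crip2, which carries LIM domains as Csrp1 and Fhl1 do. It lay at 11.09, 10.91 and 10.88 against 6.60, 6.66 and 6.66, a rise of 4.32 (SE 0.08). The others were Pfn2, a profilin, at 2.54 (SE 0.16), Myh10, nonmuscle myosin IIB, at 2.14 (SE 0.18), Mylk, the myosin light chain kinase, at 2.05, the actin-capping gene Capg at 1.30 and Des, the muscle filament desmin, at 0.94. In v-Src against STAT3-C cells 10 of the 54 were lower and 1 higher.

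Of 36 integrins and focal adhesion genes 7 were higher and 4 lower, or 2 without control replicate 1 (median 0.02). Itga6, a laminin-binding chain, lay at 10.10, 9.80 and 10.34 against 6.46, 6.84 and 6.64, a rise of 3.43 (SE 0.16, adjusted p = 1.62e-05), and Itgb8, which activates TGF-beta, rose by 3.01 (SE 0.16) from below the lower quartile. Itgb1, the common beta chain, fell by 1.05 (SE 0.09), and the focal adhesion protein Zyx by 1.33 (SE 0.17). Among 45 classical cadherins, catenins and junction genes 6 were higher and Cdh11 alone was lower. The count of 6 lay between 4 and 8 when single arrays were left out. Cdh13, a cadherin without a cytoplasmic tail, rose by 2.31 (SE 0.40). Of 39 protocadherins, homophilic adhesion proteins best known in neurons, 11 were higher and 3 lower. Pcdhb9 lay at 9.13, 9.17 and 9.68 against 4.47, 4.69 and 4.01 and Pcdhb7 at 8.69, 8.63 and 8.98 against 4.66, 4.49 and 4.54, rises of 4.94 (SE 0.21) and 4.20 (SE 0.11) from background. Genes of this cluster are similar in sequence, so signal may be shared among their probesets. At a fold of at least 2 only 4 protocadherins were higher. Of 61 ephrins, semaphorins, slits and netrins 9 were higher and 7 lower. The receptors Plxnd1 and Epha2 rose by 2.30 and 1.37, and the guidance cues Slit3 (-4.05, SE 0.10) and Ntn1 (-3.34, SE 0.09) fell.

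Of 53 WNT ligands, receptors and antagonists 14 were lower and 1 higher, with a median change of -0.07. Sfrp2, a secreted protein that binds WNT ligands, lay at 4.90, 4.67 and 4.69 against 11.44, 11.14 and 11.61, a fall of 6.65 (SE 0.13, adjusted p = 6.12e-07) to below the lower quartile. The receptor Fzd1 had 6.26, 6.26 and 6.12 against 9.94, 9.60 and 9.56 and fell by 3.48 (SE 0.12). Falls were also seen for the receptors Fzd2 and Fzd7 (-2.25 and -1.30), the stem cell receptor Lgr5 (-2.36) and the antagonists Dkk2 and Dkk3 (-2.33 and -1.08), so the falls included receptors and antagonists. Fzd8 was the only one higher (1.19, SE 0.16), and without control replicate 3 there were 2. Of 48 TGF-beta and BMP genes 9 were higher and 7 lower. The ligand Bmp4 lay at 8.68, 8.68 and 8.68 against 5.82, 5.60 and 5.0, a rise of 3.20 (SE 0.20), its antagonist Grem1 fell by 3.13 (SE 0.21), and Id1, Id2 and Id3, which BMP signaling induces, rose by 2.26, 2.11 and 2.32. The TGF-beta receptor Tgfbr1 rose by 2.33 (SE 0.15) and the ligand Tgfb1 by 1.99, while the shared mediator Smad4 fell by 0.95. In the Notch list 4 of 23 were higher and 2 lower, with the receptor Notch3 at 2.05 (SE 0.34) and the inhibitory ligand Dlk1 at -2.94 (SE 0.20).

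Growth factors and their receptors moved apart in the PDGF family. The ligand Pdgfa lay at 10.25, 10.75 and 10.27 against 6.89, 6.63 and 7.22, a rise of 3.51 (SE 0.19, adjusted p = 3.32e-05), and Pdgfb rose by 1.33 (SE 0.17). The receptor Pdgfrb lay at 5.58, 4.90 and 5.86 against 10.30, 10.68 and 10.53, a fall of 5.06 (SE 0.24, adjusted p = 1.85e-05), and Pdgfra fell by 2.08 (SE 0.26). The falls of the receptors were seen at each of their probesets, 2 for Pdgfrb and 3 for Pdgfra. Over all 42 growth factor ligands 9 were higher and 11 lower, including the EGF receptor ligand Hbegf at 2.12 (SE 0.12) and the lymphatic factor Vegfc at -2.47. Of 36 receptor tyrosine kinases 2 were higher and 7 lower. In the IGF axis 1 of 19 was higher and 6 lower (median -0.17). Both ligands fell, Igf1 by 1.46 (SE 0.19) and Igf2 by 2.43 (SE 0.18), and the binding protein Igfbp7 went from 12.25, 11.62 and 12.01 to 5.66, 5.57 and 5.55. The 1 rise, of Igfbp4 (0.64), lost its call without any 1 of the control arrays, without v-Src replicate 5 or 6 and after median centring, and 2 genes were higher without v-Src replicate 1.

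**Figure D4:**
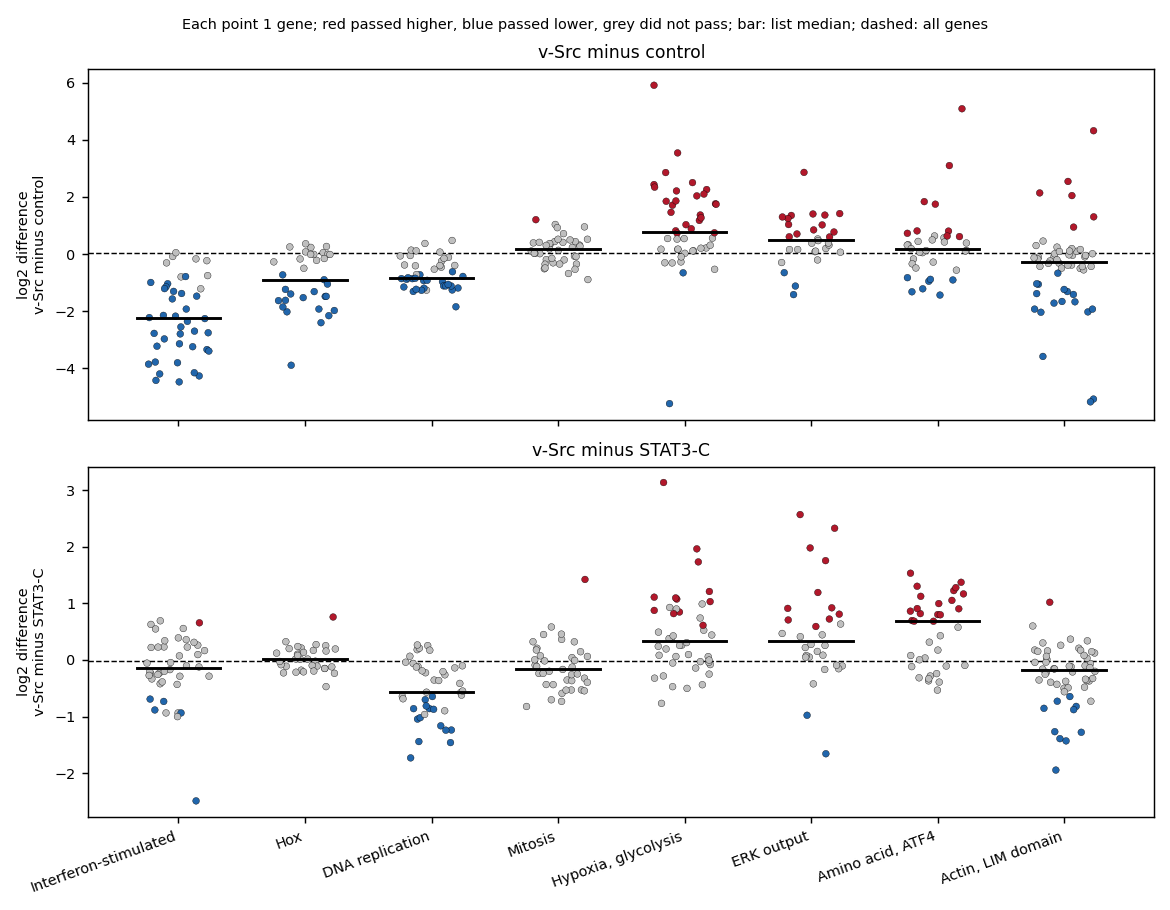
Log2 difference of each measured gene (vertical axis) in 8 gene lists, for v-Src minus control above and v-Src minus STAT3-C below, with red for genes that passed higher, blue for lower, grey for neither, a bar at the list median and a dashed line at the median of all genes. The interferon median is -2.25 against control and -0.15 against STAT3-C, while that of the amino acid list is 0.19 and 0.68.

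Hox genes record position along the body axis in fibroblasts. Of 33 measured, 18 were lower and none higher (median -0.90), and the count was 18 each time 1 array was left out. Hoxc10 lay at 5.49, 5.36 and 5.22 against 9.32, 9.09 and 9.35, a fall of 3.90 (SE 0.11, adjusted p = 1.98e-06). Hoxa9 and Hoxb9 fell by 2.41 (SE 0.13) and 2.16 (SE 0.08). The falls came from all 4 clusters, with Hoxd8 and Hoxd9 at -1.98 and -1.86. Against STAT3-C cells 1 of the 33, Hoxc8, was higher and none lower, with a median difference of 0.01. Of 53 mesenchymal and EMT transcription factors 11 were higher and 13 lower. Twist2, a factor of dermal fibroblasts, lay at 9.10, 8.94 and 9.01 against 12.26, 12.46 and 12.40, a fall of 3.36 (SE 0.09). The forkhead factors Foxd1 and Foxc1 rose by 2.85 and 1.58. The repressors of E-cadherin were divided, as Zeb2 rose by 1.14 (SE 0.18) and Snai2 fell by 1.24 (SE 0.13). Snai1 rose by 0.93 (SE 0.28), with a limma adjusted p of 0.0462 that lay close to the threshold. Zeb1 (0.30) and Twist1 (0.26) did not pass.

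Of 32 lineage regulators of fat, bone, cartilage and muscle 6 were higher and 4 lower. Cebpb and Cebpd, which act early in adipogenesis, rose by 1.43 (SE 0.10) and 1.89 (SE 0.20), and Cebpa and Pparg, which act later, fell by 1.49 (SE 0.12) and 1.26 (SE 0.10). Nuclear receptors and retinoid handling had 2 of 30 higher and 9 lower. Aldh1a1, which makes retinoic acid, had 8.52, 5.68 and 6.59 against 11.66, 12.36 and 11.96, with a wide spread between v-Src passages and no overlap between the lines, and fell by 5.07 (SE 0.65). The retinoic acid carrier Crabp1 fell by 3.67 (SE 0.33), and the glucocorticoid receptor Nr3c1 rose by 1.05. Of 44 imprinted genes 3 were higher and 10 lower (median -0.10). The zinc finger genes Peg3 and Plagl1 fell, with changes of -3.15 (SE 0.27) and -3.05 (SE 0.17), and the noncoding RNAs Kcnq1ot1 and Airn rose by 1.16 and 1.09. Of 51 genes of DNA methylation and chromatin repression 3 were higher (5 without v-Src replicate 5) and 9 lower, among them Ezh2, the methyltransferase of Polycomb complex 2 (-1.20), and the deacetylase Sirt1 (-1.34). In the circadian clock 8 of 21 were higher and 3 lower (median 0.35). The repressors Bhlhe40 and Nfil3 rose by 2.70 (SE 0.11) and 1.96, and Nr1d1 and Nr1d2, the REV-ERB receptors, fell by 0.78 and 1.08.

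Secreted mediators of inflammation did not move as a block. Of 34 chemokines and receptors 4 were higher and 7 lower. Cxcl5, a neutrophil attractant, lay at 6.16, 4.31 and 5.75 against 12.24, 12.47 and 12.32, a fall of 6.94 (SE 0.43). Ccl7, a monocyte attractant, lay at 7.40, 7.78 and 8.23 against 11.82, 11.92 and 11.96, a fall of 4.10 (SE 0.19, adjusted p = 1.89e-05), and the related Ccl2 and the stromal chemokine Cxcl12 fell by 3.00 and 3.24. The interferon-induced Cxcl11 spread widely over the control passages, at 8.99, 12.05 and 10.51 against 6.02, 6.15 and 5.79, and fell by 4.53 (SE 0.67). Cxcl1, which also attracts neutrophils, rose by 0.85. Of 34 acute-phase, complement and innate defense genes 10 were higher and 7 lower, and the lower count was 4 without v-Src replicate 1 or 6. The haemoglobin scavenger Hp lay at 12.32, 12.03 and 11.65 against 6.03, 6.24 and 6.41 and rose by 5.77 (SE 0.18), and the endotoxin receptor genes Cd14 and Tlr4 rose by 2.12 and 1.99. Saa3 and Ptx3, acute-phase proteins made by fibroblasts, fell by 2.26 and 1.90. In the interleukin-1 family 5 of 17 were higher and 2 lower (1 without control replicate 2). Il33, an alarmin cytokine, lay at 12.04, 10.04 and 12.21 on the v-Src arrays and 4.30, 5.58 and 5.13 on the control arrays. The lines did not overlap, v-Src replicate 5 was the lowest of its line, and the rise was 6.43 (SE 0.60, adjusted p = 0.00032), 86-fold. The others that rose were Il18rap (1.53), Il1rn, the interleukin-1 receptor antagonist (1.22), Il18 (0.92) and Il1f9 (0.78), and the receptor-associated kinase genes Irak3 (-0.85) and Irak1 (-0.65) fell. Among 23 NF-kappaB genes 2 were higher and 4 lower, with the adhesion receptor Vcam1 at -3.28 (SE 0.20) and the modulator Bcl3 at 1.14.

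Among 28 genes of prostaglandin synthesis and its receptors 5 were higher and 1 lower. Alox5ap, which presents arachidonate to 5-lipoxygenase, had 10.68, 10.07 and 10.69 against 5.57, 6.61 and 5.29 and rose by 4.65 (SE 0.35), the prostaglandin E synthase Ptges rose by 2.06 and the receptor Ptgfr fell by 3.76. Of 31 genes of adrenomedullin, angiotensin, endothelin and related peptides 3 were higher and 2 lower. Ramp3, which makes the receptor for adrenomedullin, rose by 2.94 (SE 0.25) while the ligand Adm fell, and the angiotensin receptor Agtr2 fell to background by 4.97 (SE 0.43). Calcium-binding S100 proteins and annexins rose without a fall, 10 of 22 (median 0.29). S100a8, a subunit of calprotectin, lay at 9.33, 9.83 and 9.38 against 6.63, 7.27 and 6.52, a rise of 2.71 (SE 0.22). The other subunit, S100a9, had means of 4.93 and 5.05, near background, and did not pass (-0.13). S100a13 and S100a16 rose by 1.69 and 1.68, and Anxa2 and its partner S100a10 by 0.89 and 0.97. S100a4 (0.65) lost its call in settings that included median centring, repeated quantile normalization and leaving out control replicate 1 or 2 or v-Src replicate 1. Of 30 Ly6 and GPI-anchored surface proteins 7 were higher and 4 lower, or 2 without v-Src replicate 1 or 5. Msln, the surface protein mesothelin, rose by 3.73 (SE 0.14), and Thy1, a fibroblast surface glycoprotein, went from 10.92, 10.40 and 11.25 to 5.68, 5.83 and 5.55.

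Lists of general cell functions held calls in both directions. Protein secretion had 9 of 47 higher and 4 lower, heat shock and endoplasmic reticulum chaperones 8 of 38 higher and 8 lower, cytosolic ribosomal proteins 3 of 47 and 2, and housekeeping genes 3 of 24 and 4. Without v-Src replicate 1 the chaperones higher were 5, and without control replicate 1 or 3 the secretion genes lower were 2. The rises among chaperones were led by genes of the endoplasmic reticulum, Pdia6 (1.41) and Creld2 (1.37), and the falls included the cytosolic heat shock genes Hspa1b (-2.39) and Cryab (-1.55). Of the genes often used as references, Gusb rose by 1.14 (SE 0.11), Hprt fell by 0.90 (SE 0.11) and Polr2a fell by 1.5 (SE 0.15).

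The fibroblast label was checked against marker genes. Vim, vimentin, lay at 13.34, 13.46 and 13.47 against 13.42, 13.38 and 13.45 and Dcn, decorin, at 12.65, 12.36 and 12.84 against 12.77, 13.15 and 12.92, and neither passed. Of 24 fibroblast markers 11 were nevertheless lower with v-Src and 2 higher, with a median change of -0.49, and their summed log2 signal was 16.03 to 16.35 with v-Src and 16.56 to 16.67 in control cells. The 2 higher were 1 without control replicate 1 or 2 or v-Src replicate 1 or 6. In these bulk samples fewer cells of a type and less RNA per cell cannot be told apart. Markers of other cell types were mostly not called: 2 of 29 epithelial markers were higher, 1 of 18 mesothelial markers was higher and 1 lower, 1 of 23 endothelial markers was higher and 1 lower, 1 of 23 neural and glial markers was lower, and of 24 muscle markers 2 were higher and 3 lower. The epithelial count was 1 without v-Src replicate 1 or 6 and 4 without v-Src replicate 5, and both mesothelial counts were 2 without v-Src replicate 5, the lower one also without control replicate 1. Among 26 macrophage and leukocyte markers Cd14, Cd53, Cd74 and Lyz2 were higher. The defining leukocyte gene Ptprc lay at 4.08, 4.12 and 4.10 with v-Src and 3.97, 4.04 and 3.96 in control cells, below the lower quartile of the arrays, as did the epithelial cadherin Cdh1 (4.52, 4.46 and 4.45 against 4.42, 4.39 and 4.17) and the endothelial Pecam1 (4.80, 4.44 and 4.53 against 4.63, 4.63 and 4.48). The summed log2 signal of the leukocyte list was 11.96 to 12.21 with v-Src and 11.24 to 11.44 in control cells. Cd14, Cd53, Cd74 and Lyz2 are members of that list, so the sum contains their rises and is no separate measure. The part of leukocytes in those rises was not tested. None of the 5 measured genes among Xist and the Y-linked genes passed.

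Some genes moved between background and expression. Switched on were 27 genes (0.148% of all), where the gene lay in the lowest 25% of probesets on every control array and above the median of every v-Src array, and 38 were switched off (0.209%). Among the first was Dock10, a guanine nucleotide exchange factor, at 8.57, 7.70 and 8.92 against 3.62, 3.72 and 3.59. The kininogen gene Kng1 had 10.26, 9.14 and 9.51 against 5.12, 4.79 and 4.79, and Rnase2a, a secreted ribonuclease of the eosinophil family, had 10.07, 9.81 and 9.70 against 4.53, 4.93 and 4.23. These do not overlap, and the rises were 4.75, 4.74 and 5.30. Among those switched off was Mlkl, the executor of necroptosis, at 4.25, 4.24 and 4.20 against 8.46, 10.05 and 9.60, and Brinp3, at 3.68, 3.59 and 3.62 against 8.90, 8.98 and 9.43. Their falls of 5.14 (SE 0.36) and 5.47 (SE 0.14) are lower bounds. The counts rest on the level chosen as low, and with 1 in 3 probesets of an array taken as low in place of 25% they were 51 and 71. Prune2 was among the 12 largest rises without being switched on, as it lay at 5.61, 5.21 and 5.36 in control cells and rose by 5.0 (SE 0.38) at all 4 of its probesets.

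The test of v-Src against STAT3-C cells asked where the transfected lines differ. It uses the same v-Src arrays as the test against control cells, so the results are not independent. Of the 1736 genes higher than in control cells, 409 were also higher than in STAT3-C cells and 129 were lower. Of the 1889 lower than in control cells, 351 were lower and 76 higher. The ERK list was among those that differed, with 11 of 30 higher in v-Src cells, 2 lower and a median difference of 0.34. Dusp4 was higher by 1.98 (SE 0.15, limma adjusted p = 0.000488) and Spred3 by 1.75 (SE 0.25). Dusp6, which had not passed against control, was higher by 2.33 (adjusted p = 0.000718). Socs3 was higher by 2.21 (SE 0.22), the basement membrane collagen Col18a1 by 2.37 (SE 0.17), Tgfbr1 by 2.17 (SE 0.17) and the leukocyte surface protein Cd53 by 2.85 (SE 0.29). Lower than in STAT3-C cells were Pdgfrb, by 3.13 (SE 0.34), the BMP antagonist Grem1, by 2.40 (SE 0.18) and Lifr, by 1.56 (SE 0.12). Among genes that also differed from control, the largest differences upward were Il33, at 6.28 (SE 0.54), Dock10, at 4.58 (SE 0.28), the serpin Serpina3n, at 4.38 (SE 0.55), and the MYC family gene Mycn, at 4.17 (SE 0.19), which was lower than in control cells (-2.22). The largest downward were Cxcl5, at -5.73 (SE 0.51), the Ly6-related Slurp1, at -4.62 (SE 0.15), which was higher than in control cells (1.15), the proteoglycan Ogn, at -3.84 (SE 0.24), and Ctla2a, at -3.36 (SE 0.33). Against control Ctla2a had -0.81, and it lost that call when all 9 arrays were fitted together. Scara5 and Igf2r did not pass against control (-0.94 and 0.38) but differed from STAT3-C cells. The ferritin receptor gene Scara5 was lower by 5.21 and Igf2r, which takes up IGF-II, was higher by 2.99, both with a limma adjusted p of 2.01e-05. Antioxidant genes had 6 of 45 higher and 11 lower, and respiratory chain subunits 2 of 72 higher and 11 lower.

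Changed genes also lay side by side. In gene order, 13 runs of at least 4 neighbouring measured genes were all higher, with 56 genes and a longest run of 6, and 18 runs were all lower, with 80 genes and a longest run of 8. The longest lies on chromosome 19 and holds Stambpl1 (-1.12), Acta2 (-5.08), Fas (-1.49), Ch25h (-2.13), Lipa (-1.39), Ifit2 (-3.35), Ifit3 (-4.43) and Ifit1bl1 (-0.87). It joins a contractile gene, a death receptor, a cholesterol hydroxylase, a lysosomal lipase and interferon-stimulated genes. Runs of Hox genes were found in 3 clusters, from Hoxb5os to Hoxb2 with 6 genes, from Hoxc13 to Hoxc6 with 5 and from Hoxa9 to Hoxa11os with 4. Runs with rises included Znhit1, Plod3, Vgf, Ap1s1 and Trim56 on chromosome 5 (0.67 to 1.30) and a run of 6 on chromosome 9 from Rasa2 to Gm19325 (0.69 to 2.10), where Rasa2 lost its call without control replicate 2 or v-Src replicate 6. Chromosome 8 held 6 of the 18 runs that were lower.

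Counting calls by chromosome was added after the data had been seen. Of 18145 genes placed in gene order, the share lower with v-Src was 22.1% on chromosome 10, 21.2% on chromosome 8, 20.9% on chromosome 19 and 16.3% on chromosome 6, against 10.4% of all genes. The share higher was 18.9% on chromosome 3, 16.6% on chromosome 15 and 14.9% on chromosome 18, against 9.54%. Among 12249 expressed genes, whose mean lay above the median of the arrays in either line, the median log2 change was -0.29 on chromosome 10, -0.23 on chromosome 8, -0.21 on chromosome 19, 0.26 on chromosome 3 and 0.18 on chromosome 15, and 0.02 over all. The same medians for v-Src minus STAT3-C were -0.04, -0.02, 0.10, -0.0049 and -0.02. These chromosomes were picked for their large medians against control, so smaller direct medians on them follow in part from that choice. On chromosomes 14, 16 and 17 the direct medians were the larger in size, at -0.14, -0.18 and -0.10 against -0.01, -0.12 and -0.02. The same held on chromosomes 1, 11, 12 and X, at 0.0621, -0.0363, -0.12 and -0.11 against -0.0614, -0.0025, 0.10 and -0.09. Neighbouring genes are not independent, and no test was made.

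**Figure D5:**
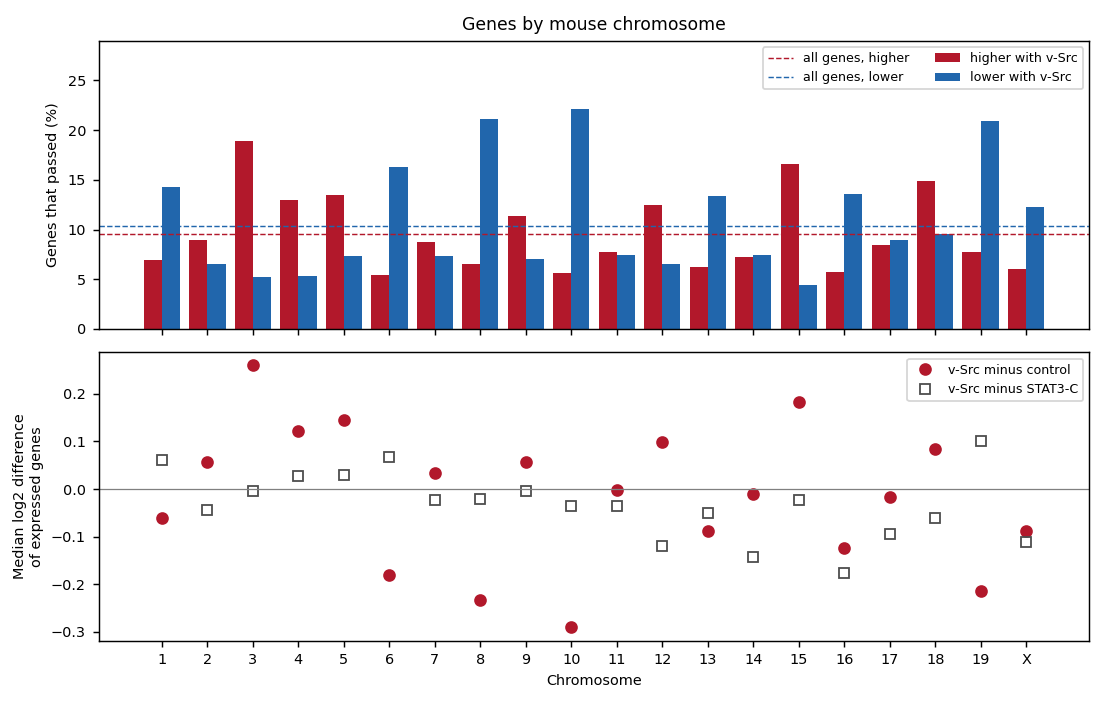
Share of genes that passed on each chromosome (upper panel, percent, with dashed lines at the share of all genes) and median log2 difference of expressed genes for v-Src minus control and v-Src minus STAT3-C (lower panel). The median against control is lowest on chromosome 10 at -0.29 and highest on chromosome 3 at 0.26, where the medians against STAT3-C are -0.04 and -0.0049.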

How the data were processed

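The study hybridised total RNA of each line to Affymetrix mouse genome arrays, 1 array a passage. The deposited values are log2 expression values, which the authors made by robust multichip average (RMA, background correction, quantile normalization and summary of the probes of a probeset). Per the methods control arrays went through RMA in 2 runs, 1 with each transfected line, and which run gave the deposited control columns is not stated. The v-Src and STAT3-C arrays were thus in separate runs. If the deposited values come from those runs, the direct test compares values of different runs. The part of this in the comparisons was not tested. No depth applies to arrays, and the number of arrays, 3 a line, limits the precision.

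Groups came from the sample labels. The 64 control probesets were left out. Of the 45037 others 34945 had 1 gene symbol, 932 several and 9160 none in the annotation used, and 34741 were matched by gene number to RefSeq names. Each of 18193 genes was represented by whichever of its probesets had the highest mean signal on all 9 arrays. The v-Src and control arrays, and separately the v-Src and STAT3-C arrays, were fitted with limma 3.58.1 (R 4.3.3, eBayes), and p-values were adjusted by Benjamini-Hochberg over all probesets. To pass, a probeset needed a fold of 1.5 or more with its adjusted p below 0.05. SE is that of the log2 difference. On simulated data for v-Src against control with 45037 probesets, the fit recovered 92% of probesets changed 2-fold and 99% of those changed 4-fold, with 11 false calls. Promoters of 300 bases (250 before to 50 after the start) and gene order came from RefSeq tables of GRCm38.p6.

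The genes, lists and comparisons were chosen with earlier results of these data known. Genes named by rule were Src, Stat3, the 12 largest rises and falls among genes that passed without overlap, up to 3 leading rises and falls of each list, the leading 8 switched on and 8 off, the leading 4 each way in the direct comparison and members of runs of at least 5 neighbours, and not all of them stand in the text. Other genes named in the text, among them Scara5, Igf2r, Mx1, Slc2a1, Pdk1, Plau, Tpm1, Id1, Snai1 and Thbs2, were chosen after their values were seen. Alternatives were another scaling, a filter on low values, other thresholds, another variance model, all 9 arrays in 1 fit, SAM as in the methods, the mean of a gene's probesets and leaving out each array. One of the gene lists is not reported here.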

Additional observations from a re-analysis of the deposited data

How the results depend on the processing

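No named gene changed direction under any of the alternatives run, but which direction held more calls did change. More probesets were higher than lower against control (3939 and 3647), and fewer after median centring (3354 and 4249), after repeated quantile normalization (3780 and 3815) and without control replicate 2 (3818 and 3878). Fewer genes were higher than lower (1736 and 1889), and more once the probesets of each gene were averaged (1618 and 1531), without control replicate 3 (1720 and 1710) and at a fold of at least 2. Against STAT3-C fewer probesets were higher than lower (2246 and 2399), and more after repeated quantile normalization (2337 and 2224) and without v-Src replicate 1 (2004 and 1926). Against control, the probesets higher and lower were 1841 and 1669 at a fold of at least 2, and the genes 856 and 854. Against STAT3-C the same threshold gave 725 and 771 probesets, and an adjusted p under 0.01 gave 1466 higher. With 1 in 3 probesets of an array taken as low, 51 genes were switched on and 71 off. That level rule uses no test, so other tests and thresholds give it no value. Leaving out 1 array at a time gave 3537 to 3893 probesets higher and 3237 to 3878 lower, 1591 to 1778 genes higher and 1709 to 1977 lower, 1769 to 2358 probesets higher and 1800 to 2481 lower against STAT3-C, and 27 to 36 genes switched on and 38 to 42 off. The cause of these differences was not tested beyond the stricter or looser threshold itself. SAM called 4106 probesets higher and 3833 lower. Of the probesets that passed 51.9% were higher, against 44.1% after median centring, which moved the median of all probesets from 0.03 to -0.04, and 49.8% after quantile normalization was repeated. Of the named genes 77 lost their call in at least 1 alternative. When a gene's probesets were averaged, Srf, Itgb1, Rb1, Bak1, Airn and Nr1d2 no longer passed. No paired analysis was possible because the v-Src arrays are numbered 1, 5 and 6 and share only number 1 with the control arrays and with the STAT3-C arrays. Signal near background limits how large a change can be measured.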
